A study of Rattus norvegicus with 28 samples.

Results

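Rats that carried the mutant human transgene and also had a nerve injury were compared with wild-type rats that had neither. The 6 TG crush libraries and the 8 wt naive libraries, 14 of the 28 in the series, were chosen by their labels for genotype and treatment alone. All are RNA sequencing libraries of striatum from male rats, each labelled 12 weeks post injury, naive rats included. TG rats have the genotype given as {delta}ETorA, a model of DYT-TOR1A dystonia, and wt stands for wild type. Crush means that the right sciatic nerve was crushed for 30 seconds, and naive rats are those labelled without it. The groups were TG crush (transgenic and injured, 6 libraries), TG naive (transgenic, not injured, 8 libraries), wt crush (wild type, injured, 6 libraries) and wt naive (8 libraries). The promoter that drives the transgene, the rats' age, the hemisphere sampled, the time of day of sampling and the sequencing run of each library are not given in the sources used here. Nothing beyond a number for each library says that it came from an animal of its own, so the tests see the variation among libraries, part of which may be technical.

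TorsinA, the product of TOR1A, is an ATPase of the endoplasmic reticulum and nuclear envelope, and a deletion of a glutamic acid in it causes DYT-TOR1A dystonia in some of its carriers. A nerve crush in such a model adds a peripheral injury to the inherited change. Among the genes that differed were 8 of the circadian clock, a feedback loop found in most cells: the BMAL1-CLOCK complex (BMAL1 is encoded by Arntl) turns on genes whose products, the period and cryptochrome proteins, the REV-ERB receptors and others, then repress the complex or its genes. Levels of these transcripts vary over the day in brain tissue, the striatum included.

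Of the 39538 genes in the table, 16391 reached at least 1 RPM (reads per 1000000 reads assigned to genes) in at least 6 of the 14 libraries and were tested. The libraries of the series held 29151455 to 38407359 assigned reads, and 3 reads corresponded to at most 0.103 RPM. The tissue label was checked on 20 markers of striatal spiny neurons. Some, such as Drd1 and Drd2, mark the direct or the indirect pathway alone. All 20 passed the minimum. Their mean log2 level was 9.02 ± 0.31 in TG crush and 8.92 ± 0.38 in wt naive libraries (SD, n = 6 and 8). Slc17a7, a marker of cortical glutamatergic neurons, exceeded 20 RPM in 1 TG crush library and 3 wt naive libraries. The pituitary transcript Gh1 (growth hormone) stood at 0.596, 2.21 and 41.9 RPM in TG crush libraries (lowest, median and highest), against 0, 0.0617 and 2.04 RPM in wt naive libraries. TG crush library 223 held the highest Gh1, the highest share of mitochondrial transcripts in its group (18.5%) and the highest choroid plexus transcript Ttr in its group (77.5 RPM).

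The human TOR1A transcript, a separate entry of the table, checked the genotype labels. It stood at 102, 137 and 139 RPM in TG crush libraries (lowest, median and highest), against 0, 0.152 and 0.972 RPM in wt naive libraries. The groups did not overlap, and the exact two-sided permutation test of the mean level gave p = 0.000666, the smallest value that the 3003 splits of 14 libraries can give. The rat's own gene, Tor1a (Rnor_6.0, chromosome 3, 9800322 to 9807318), stood at 16.9, 21.7 and 23.2 RPM in TG crush libraries, against 21.0, 22.4 and 23.7 RPM in wt naive libraries. Its groups overlapped, and its means of 21.2 ± 2.25 RPM in TG crush and 22.5 ± 0.833 RPM in wt naive libraries (SD, n = 6 and 8) were not separated by the exact permutation test (p = 0.16). Tor1aip1, which encodes the torsin activator LAP1, had a log2 difference of -0.09 ± 0.05 (SE, limma adjusted p = 0.448). None of the 7 torsins and cofactors tested passed, and their median log2 difference was -0.08.

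In all, 38 genes differed at an adjusted p under 0.05 in the limma fit, 0.232% of those tested. Human TOR1A and 11 rat genes were higher in TG crush (0.0732% of genes tested, human TOR1A included), and 26 rat genes were lower (0.159%). At an unadjusted p under 0.05 there were 2226 genes, against 819.6 by chance. Log2 differences of the 37 rat genes were 0.24 to 1.223 in size, and the median over all genes tested was -0.03. The higher and lower genes were more even in number under other scalings: 23 higher and 20 lower with median-of-ratios rescaling, 26 and 23 with quantile normalization, and 22 and 21 with the total taken without mitochondrial transcripts. Leaving out 1 library moved the count of 38 most for TG crush library 223 (185 genes without it, of which 140 lower, 0.854% of genes tested), TG crush library 226 (96), wt naive library 196 (79), TG crush library 220 (24) and TG crush library 222 (22). All 38 genes remained called without library 223. None of the 38 changed sign under any alternative run, and 15 were called under every alternative that tested them. The 15 were human TOR1A, Tgm2, Parvb, Nr1d2, Ciart, Cd93, Mmp14, Bhlhe41, Klhdc7a, Per3, Dbp, Serpinb9, LOC102549596, Per2 and Arntl. In a fit of the 14 libraries alone, 22 of the others lost their calls (all but Pld6), and 20 did so without the libraries with over 20 RPM of Slc17a7 (all but Coq10b, Sphk2 and Col4a1).

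**Figure D1:**
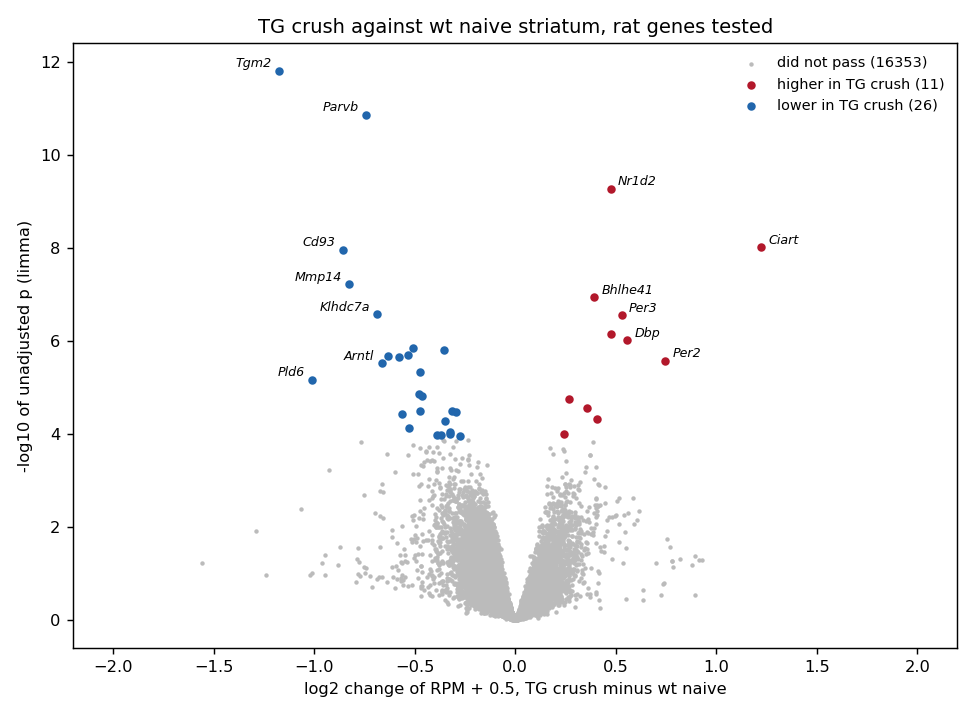
Each point is 1 rat gene of the 16391 genes tested (human TOR1A is left out), with its log2 difference, TG crush minus wt naive, on the horizontal axis and the negative log10 of its unadjusted p in limma on the vertical axis. Red points are the 11 genes higher in TG crush and blue points the 26 lower ones, with Tgm2 and Parvb at the lowest p.

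Transcripts of 5 clock repressors, Nr1d2, Ciart, Bhlhe41, Per2 and Per3, were higher in the striatum of TG crush rats than of wt naive rats. Of 15 repressors tested, 5 rose, 0 fell and 10 did not pass, and the median log2 difference of the 15 was 0.20. Over all genes tested, 0.0732% rose. In wt crush against wt naive libraries, 4 of the 15 rose and 0 fell, where 0.0427% of genes tested rose. The groups did not overlap for any of the 5. Across all genes tested, 0.061% had every TG crush library above every wt naive library.

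Ciart, which encodes a repressor of the BMAL1-CLOCK complex, was measured at 14.3, 17.9 and 23.3 RPM in TG crush libraries (lowest, median and highest), against 6.11, 6.70 and 10.8 RPM in wt naive libraries. Every TG crush library lay above every wt naive library, and the mean level was 2.42-fold higher in TG crush. Its log2 difference of 1.223 ± 0.15 (SE, limma adjusted p = 3.04e-05) was the highest among the 11 rat genes that rose. Per2, a period protein of the core loop, stood at 30.1, 32.2 and 43.8 RPM in TG crush libraries, against 14.4, 19.5 and 28.6 RPM in wt naive libraries. These groups were apart as well, with a log2 difference of 0.75 ± 0.13 (SE, limma adjusted p = 0.00242). Per3, its paralog, stood at 42.7, 45.5 and 53.1 RPM in TG crush libraries, against 27.8, 32.5 and 37.4 RPM in wt naive libraries, also without overlap, and its log2 difference was 0.53 ± 0.08 (SE, limma adjusted p = 0.000462).

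Nr1d2 encodes REV-ERB beta, a nuclear receptor that represses Arntl. It stood at 112, 118 and 131 RPM in TG crush libraries, against 75.4, 86.0 and 94.6 RPM in wt naive libraries. The groups were separate, and the log2 difference of 0.48 ± 0.05 (SE, limma adjusted p = 2.18e-06) had the lowest p of the rat genes that rose. Bhlhe41 encodes DEC2, a repressor that binds E-boxes, and stood at 141, 154 and 168 RPM in TG crush libraries, against 108, 116 and 128 RPM in wt naive libraries. All 6 TG crush libraries exceeded all 8 wt naive libraries, with a log2 difference of 0.39 ± 0.06 (SE, limma adjusted p = 0.000236).

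Nr1d1, which encodes REV-ERB alpha and is the paralog of Nr1d2, did not pass: it stood at 85.9, 103 and 126 RPM in TG crush libraries, against 82.7, 99.6 and 122 RPM in wt naive libraries. These ranges overlapped over most of their width, and the log2 difference was 0.08 ± 0.09 (SE, limma adjusted p = 0.755). Among the other repressors that did not pass, the log2 difference was 0.30 ± 0.11 (SE) for Per1, 0.28 ± 0.10 for Bhlhe40, 0.20 ± 0.09 for Cry1, 0.16 ± 0.05 for Cry2 and 0.15 ± 0.05 for Cipc. The casein kinases Csnk1d and Csnk1e and the ubiquitin ligase subunit Fbxl21, which act on the stability of period and cryptochrome proteins, had log2 differences from -0.06 to -0.01, and those of Csnk1e and Fbxl21 changed sign under median-of-ratios rescaling and quantile normalization.

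Of 9 clock activators and output factors tested, 2 rose (Dbp and Tef), 1 fell (Arntl) and 6 did not pass, with a median log2 difference of 0.07. Over all genes tested, 0.0732% rose and 0.159% fell. Arntl was measured at 15.5, 23.0 and 25.4 RPM in TG crush libraries, against 29.3, 33.5 and 45.8 RPM in wt naive libraries. The highest TG crush library lay under the lowest wt naive library, and the log2 difference was -0.67 ± 0.11 (SE, limma adjusted p = 0.0026). TG crush library 223, the lowest, stood apart from its group, and without it the log2 difference was -0.56 (limma adjusted p = 0.00986).

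Dbp and Tef encode PAR bZIP factors, activators that bind D-boxes and are transcribed under the clock. Dbp stood at 286, 316 and 358 RPM in TG crush libraries, against 182, 209.6 and 266 RPM in wt naive libraries, with no overlap and a log2 difference of 0.56 ± 0.09 (SE, limma adjusted p = 0.00133). For Tef the levels were 429, 491 and 529.6 RPM in TG crush libraries, against 349.6, 418 and 464 RPM in wt naive libraries. These groups overlapped, the log2 difference was 0.24 ± 0.05 (SE, limma adjusted p = 0.0473), and the call was lost in 9 of the 14 fits that leave out 1 library, with an adjusted p of up to 0.196 (without TG crush library 222). Hlf, the other PAR bZIP member, had a log2 difference of 0.42 ± 0.12 (SE, limma adjusted p = 0.157) and did not pass. Clock and Npas2, which encode partners of BMAL1, had log2 differences of 0.07 ± 0.08 and -0.17 ± 0.07 (SE), and neither passed. Rora and Rorb, which encode ROR receptors that activate Arntl, had 0.12 ± 0.09 and 0.05 ± 0.06, and Nfil3, a repressor at D-boxes, had -0.21 ± 0.12 (SE), and none of these passed. Wee1, a cell cycle kinase gene known as an output of the clock in mouse liver, rose by 0.40 ± 0.08 (SE, limma adjusted p = 0.0256) on the log2 scale, with overlapping groups. Its call was lost in 7 of those 14 fits, with an adjusted p of up to 0.143 (without TG crush library 222).

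**Figure D2:**
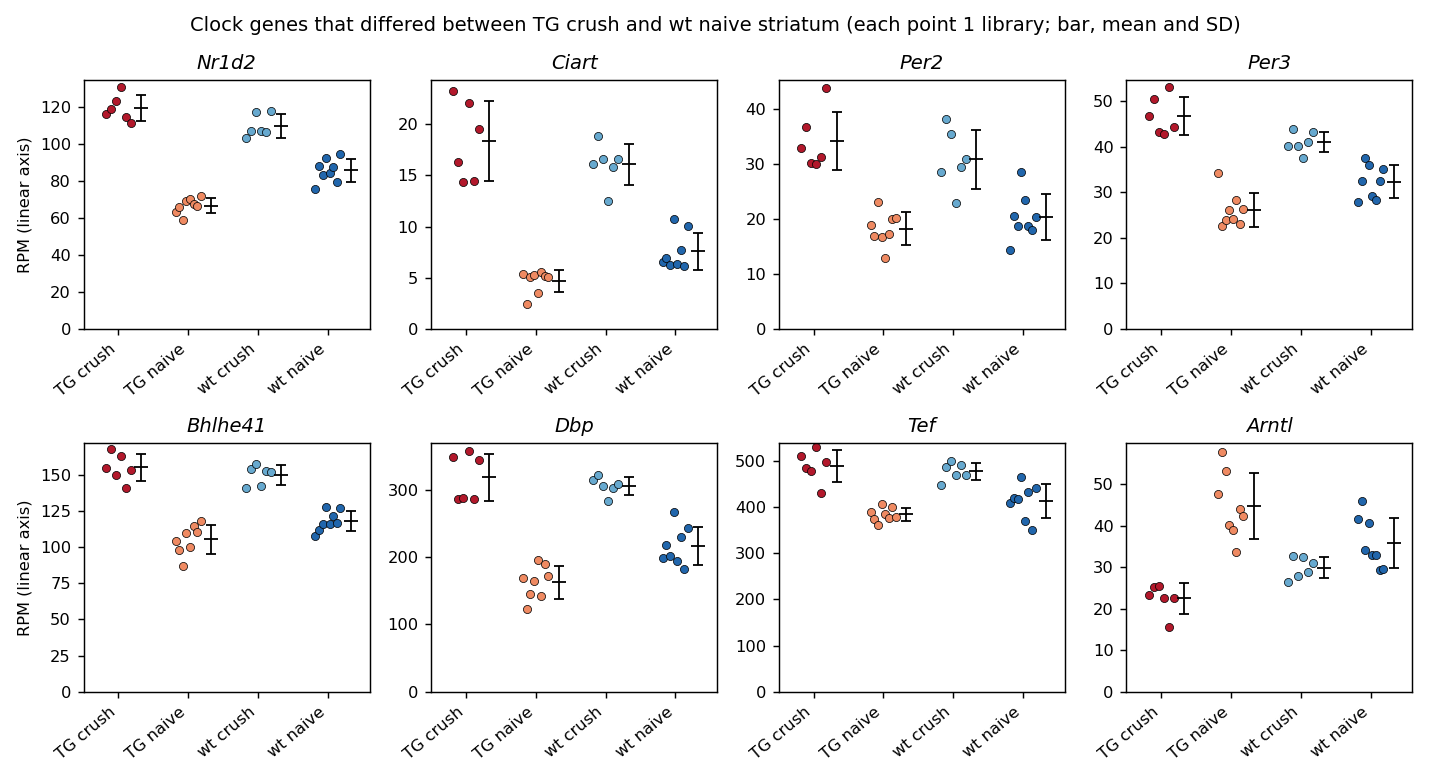
Level in RPM (vertical axes, linear, from 0) of the 8 clock genes that passed, in each library of the 4 groups. Points are libraries and the bars are the mean and SD of the group. In Ciart, Per2, Per3, Nr1d2, Bhlhe41 and Dbp the 6 TG crush libraries lie above the 8 wt naive libraries, in Arntl they lie below them, and in Tef the groups overlap.

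The promoters of the clock genes that passed were read for motifs through which clock factors are known to act. The sequences were those of RefSeq for GRCr8 (250 bases before to 50 after the gene's start). A sequence was found for all 8 clock genes that passed. Both strands were searched for the E-box CACGTG (bound by BMAL1-CLOCK), the D-box TTANGTAA (bound by Dbp and its relatives), the ROR element core TAGGTCA (bound by ROR and REV-ERB receptors) and the cAMP response element TGACGTCA. Over all 33469 promoters of the table, 6.42% hold this E-box, 2.24% the D-box, 2.63% the ROR element core and 1.83% the cAMP response element. The E-box was found in 3 of the 8 (Ciart, Bhlhe41 and Tef) at 5 places, the D-box in 1 (Per2), the ROR element core in 1 (Arntl) and the cAMP response element in 0. The promoters of Nr1d2, Per3 and Dbp, which also rose, held none of these motifs.

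The 4 promoters below each hold a searched motif. They are those of Ciart, whose rise was the highest, of Per2 and Bhlhe41, which rose, and of Arntl, the clock gene that fell. They are written on the strand of the gene, with the motifs in capitals: E-boxes in Ciart (first base at -93, -35 and -21 relative to the gene's start) and Bhlhe41 (-48), the D-box in Per2 (-192) and the ROR element core in Arntl (-16). In GRCr8 they lie at chr2:186112197-186112496 (minus strand), chr9:99496944-99497243 (minus strand), chr4:180569306-180569605 (minus strand) and chr1:176766078-176766377 (plus strand).
Ciart: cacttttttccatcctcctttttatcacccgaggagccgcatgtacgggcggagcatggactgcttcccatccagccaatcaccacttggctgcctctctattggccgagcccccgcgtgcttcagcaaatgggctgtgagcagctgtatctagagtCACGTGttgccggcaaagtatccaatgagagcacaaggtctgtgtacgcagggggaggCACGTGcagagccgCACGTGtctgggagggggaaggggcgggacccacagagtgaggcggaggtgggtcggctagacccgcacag
Per2: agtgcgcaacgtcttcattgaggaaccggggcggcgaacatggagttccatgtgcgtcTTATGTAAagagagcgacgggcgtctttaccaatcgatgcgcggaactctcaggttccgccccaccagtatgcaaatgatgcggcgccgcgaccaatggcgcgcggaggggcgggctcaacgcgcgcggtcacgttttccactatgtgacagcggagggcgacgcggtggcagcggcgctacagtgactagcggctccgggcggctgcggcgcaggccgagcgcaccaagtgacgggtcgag
Bhlhe41: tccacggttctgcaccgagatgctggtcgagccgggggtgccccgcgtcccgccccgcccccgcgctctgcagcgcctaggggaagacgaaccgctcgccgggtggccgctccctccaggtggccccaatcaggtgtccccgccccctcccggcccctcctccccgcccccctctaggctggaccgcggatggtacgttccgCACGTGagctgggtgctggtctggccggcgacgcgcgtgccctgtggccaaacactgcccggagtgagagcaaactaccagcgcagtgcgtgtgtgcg
Arntl: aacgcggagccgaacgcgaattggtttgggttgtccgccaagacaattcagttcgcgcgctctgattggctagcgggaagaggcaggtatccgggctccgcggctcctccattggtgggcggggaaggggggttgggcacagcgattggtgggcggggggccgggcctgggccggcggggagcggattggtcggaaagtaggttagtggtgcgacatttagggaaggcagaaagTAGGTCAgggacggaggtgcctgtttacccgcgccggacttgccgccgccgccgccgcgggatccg

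Outside the clock, 3 more genes rose. Coq10b, which encodes a mitochondrial protein that binds coenzyme Q, stood at 16.4, 21.1 and 22.6 RPM in TG crush libraries, against 11.7, 14.7 and 15.7 RPM in wt naive libraries. Its groups did not overlap and its log2 difference was 0.47 ± 0.07 (SE, limma adjusted p = 0.00105), which missed the threshold when the 14 libraries were fitted alone (adjusted p = 0.0667). Tra2b, a splicing factor gene, had a log2 difference of 0.27 ± 0.05 (SE, limma adjusted p = 0.0121), and Nufip2, which encodes an RNA-binding partner of FMRP, one of 0.36 ± 0.07 (SE, limma adjusted p = 0.0184). The groups overlapped for both, and both calls were lost without TG crush library 220 (adjusted p = 0.071 and 0.101) and without TG crush library 222.

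On the list of extracellular matrix genes and proteases, Tgm2, Mmp14, Col4a1 and Col4a2 were lower in TG crush striatum. Of the 38 genes tested, 0 rose, 4 fell and 34 did not pass, and the median log2 difference was -0.13. The share that fell over all genes tested was 0.159%. Tgm2 encodes transglutaminase 2, which cross-links proteins, and stood at 7.99, 9.87 and 12.4 RPM in TG crush libraries (lowest, median and highest), against 18.1, 24.3 and 26.2 RPM in wt naive libraries. The groups were far apart: the mean was 2.31-fold lower in TG crush, and the log2 difference of -1.18 ± 0.10 (SE, limma adjusted p = 1.29e-08) had the lowest p of all rat genes. Across all genes tested, 0.165% had every TG crush library below every wt naive library.

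Mmp14 encodes a membrane-bound metalloproteinase that activates MMP2. It stood at 4.29, 5.36 and 5.90 RPM in TG crush libraries, against 7.58, 9.37 and 13.5 RPM in wt naive libraries, without overlap, and its log2 difference was -0.83 ± 0.11 (SE, limma adjusted p = 0.000144). Mmp2 itself had a log2 difference of -0.37 (limma adjusted p = 0.177) and did not pass. Col4a1 and Col4a2 encode the main collagen chains of the vascular basement membrane. Col4a1 stood at 33.9, 42.8 and 48.4 RPM in TG crush libraries, against 48.5, 63.6 and 75.2 RPM in wt naive libraries, narrowly apart, with a log2 difference of -0.54 ± 0.09 (SE, limma adjusted p = 0.00219). Col4a2 stood at 29.9, 34.5 and 42.2 RPM in TG crush libraries, against 38.7, 48.0 and 61.6 RPM in wt naive libraries, and its groups overlapped, with a log2 difference of -0.47 ± 0.08 (SE, limma adjusted p = 0.00377). The genes adjoin head to head on chromosome 16 on opposite strands. Fitted on the 14 libraries alone, neither passed (adjusted p = 0.0597 for Col4a1 and 0.0902 for Col4a2), and Col4a2 also missed the threshold without the libraries with over 20 RPM of Slc17a7 (adjusted p = 0.105). Collagens of other types, fibronectin, laminins and the proteoglycans Bcan, Ncan and Vcan did not pass.

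A pair of genes known from endothelium fell. Pcdh12 lay outside the rule for naming and the list of endothelial markers, and was chosen after its values were seen. Cd93, which encodes a surface receptor of endothelial and myeloid cells, stood at 5.41, 6.78 and 9.54 RPM in TG crush libraries, against 10.6, 13.8 and 16.3 RPM in wt naive libraries. All TG crush libraries lay below all wt naive libraries, and the log2 difference was -0.86 ± 0.11 (SE, limma adjusted p = 3.04e-05). Pcdh12, which encodes a protocadherin of endothelial cells, stood at 0.539, 0.806 and 1.18 RPM in TG crush libraries, against 1.16, 1.43 and 2.16 RPM in wt naive libraries, close to the minimum of 1 RPM and with overlapping groups. Its log2 difference of -0.63 ± 0.11 (SE, limma adjusted p = 0.00219) missed the threshold on the 14 libraries alone and without the Slc17a7-rich libraries (adjusted p of up to 0.152).

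Of 14 endothelial markers tested, 0 rose, 1 fell (Cd93) and 13 did not pass, with a median log2 difference of -0.13. The share that fell over all genes tested was 0.159%. The summed level of the list was 678, 734 and 974 RPM in TG crush libraries (lowest, median and highest), against 720.1, 882 and 938 RPM in wt naive libraries. The ranges overlapped, and the part of the endothelial share in the differences of Cd93, Pcdh12 and the collagens was not tested. In bulk tissue, fewer cells of a type and less RNA per cell cannot be told apart. Pecam1 (log2 difference -0.27 (adjusted p = 0.19) in limma), Tek (-0.21 (adjusted p = 0.232)) and Cldn5 (-0.17 (adjusted p = 0.432)), all endothelial genes, did not pass. Without TG crush library 223, Pecam1 passed (log2 difference of -0.32, limma adjusted p = 0.0491). In that fit 2 of the 14 markers fell (Cd93 and Pecam1), where 0.854% of all genes tested fell.

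**Figure D3:**
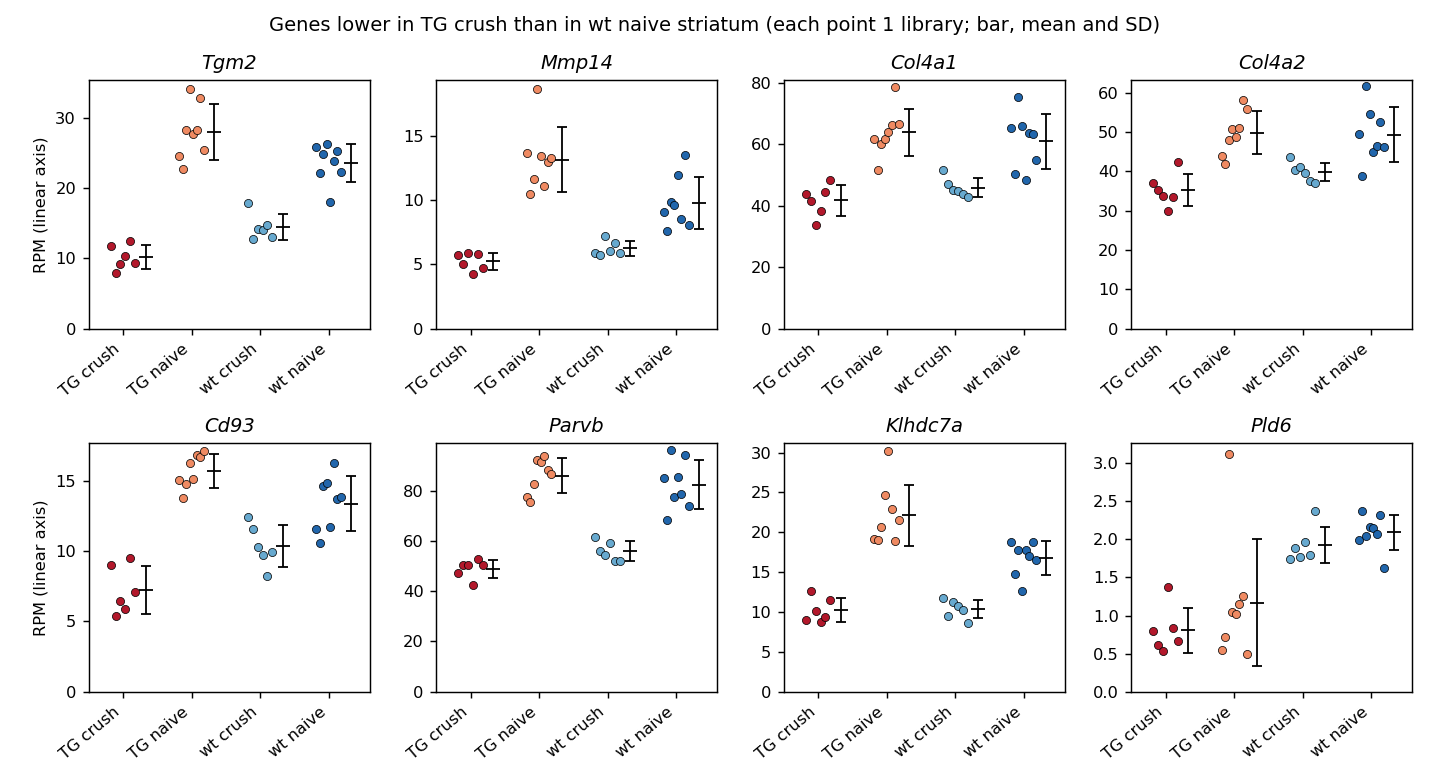
Level in RPM (vertical axes, linear, from 0) of 8 genes lower in TG crush than in wt naive striatum, in each library of the 4 groups. Points are libraries and the bars are the mean and SD of the group. The TG crush libraries lie below the wt naive libraries in Tgm2, Mmp14, Col4a1, Cd93, Parvb and Pld6, and the groups overlap in Col4a2 and Klhdc7a.

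Parvb, with the second lowest p of the rat genes, encodes beta-parvin, an adaptor between integrin-linked kinase and actin, and was lower in TG crush. It stood at 42.3, 50.3 and 52.9 RPM in TG crush libraries (lowest, median and highest), against 68.2, 82.0 and 96.3 RPM in wt naive libraries. The groups did not overlap, the mean was 1.69-fold lower in TG crush, and the log2 difference was -0.74 ± 0.07 (SE, limma adjusted p = 7.5e-08). Kank1, which encodes an adaptor at adhesions, had a log2 difference of -0.46 ± 0.09 (SE, limma adjusted p = 0.0108), and Myo10, the motor of filopodia, one of -0.28 ± 0.06 (SE, limma adjusted p = 0.0473), with overlap for both. Kank1 lost its call without TG crush library 220 (adjusted p = 0.0647) or 222, and Myo10 in 10 of 14 fits that leave out 1 library (adjusted p of up to 0.196, without TG crush library 222). Myo10 and Gli2, a transcription factor gene of the hedgehog pathway with a log2 difference of -0.33 ± 0.07 (SE, limma adjusted p = 0.0473), span over 200 kb each, and Gli2 lost its call in 11 of those 14 fits (adjusted p of up to 0.178).

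Klhdc7a, a kelch domain gene, stood at 8.70, 9.76 and 12.6 RPM in TG crush libraries, against 12.6, 17.4 and 18.8 RPM in wt naive libraries. The groups overlapped by a single library at the edge, and the log2 difference was -0.69 ± 0.10 (SE, limma adjusted p = 0.000462). Serpinb9, which encodes an inhibitor of granzyme B, stood at 13.7, 15.2 and 18.8 RPM in TG crush libraries, against 19.1, 22.4 and 25.9 RPM in wt naive libraries, narrowly apart, with a log2 difference of -0.51 ± 0.08 (SE, limma adjusted p = 0.00183). Aqp9, a channel for water and glycerol, had a log2 difference of -0.53 ± 0.11 (SE, limma adjusted p = 0.0381) and lost its call in 8 of 14 fits that leave out 1 library (adjusted p of up to 0.190, without TG crush library 222). Plekhd1 had one of -0.48 ± 0.09 (SE, limma adjusted p = 0.0104), with overlap, and missed the threshold in the 14 libraries alone (adjusted p = 0.0902) and without the Slc17a7-rich libraries (0.265).

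Further lower genes lay outside the rule for naming and were chosen after their values were seen. Sphk2, which makes sphingosine 1-phosphate, had a log2 difference of -0.35 ± 0.06 (SE, limma adjusted p = 0.00187) and missed the threshold in the 14 libraries alone (adjusted p = 0.101). It lies beside Dbp on chromosome 1 on the other strand (101692972 to 101700604, with Dbp at 101687896 to 101692845, Rnor_6.0), and the neighbours moved in opposite directions. Creb3l1, a transcription factor gene of the endoplasmic reticulum membrane, had a log2 difference of -0.56 ± 0.12 (SE, limma adjusted p = 0.0207), with groups apart. Cbs (cystathionine beta synthase) had -0.35 ± 0.07 (SE, limma adjusted p = 0.0278), Dhrs3 (a reductase of retinal) -0.33 ± 0.07 (SE, limma adjusted p = 0.044), Aifm3 -0.37 ± 0.08 (SE, limma adjusted p = 0.0473) and Zfp580 -0.29 ± 0.06 (SE, limma adjusted p = 0.0196). LOC108348047, described in the deposited table as a low affinity immunoglobulin gamma receptor, had a log2 difference of -0.47 ± 0.10 (SE, limma adjusted p = 0.0196). LOC102549596, a long noncoding RNA, and LOC100912479 were lower with groups apart (log2 differences of -0.58 ± 0.10 and -0.32 ± 0.06, SE). Mgme1, a nuclease gene of mitochondrial DNA upkeep, had a log2 difference of -0.39 ± 0.09 (SE, limma adjusted p = 0.0473) and overlaps Snx5, a more abundant gene on the opposite strand, so its reads are uncertain. Of these, Creb3l1, Cbs, Dhrs3, Aifm3, Zfp580, LOC108348047, LOC100912479 and Mgme1 lost their calls in 3 to 11 of the 14 fits that leave out 1 library (adjusted p of up to 0.216).

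Pld6, which encodes a mitochondrial phospholipase D family member, also lay outside the rule. It stood at 0.539, 0.733 and 1.37 RPM in TG crush libraries (lowest, median and highest), against 1.63, 2.11 and 2.38 RPM in wt naive libraries. The groups did not overlap, and the log2 difference was -1.01 ± 0.18 (SE, limma adjusted p = 0.00529). It missed the threshold without the Slc17a7-rich libraries (log2 difference of -1.01, adjusted p = 0.13). TG naive libraries held 0.498, 1.03 and 3.13 RPM and wt crush libraries 1.74, 1.84 and 2.37 RPM. Pld6 stood low in both transgenic groups, apart from 1 TG naive library, and high in both wild-type groups. It did not pass in TG naive against wt naive (limma adjusted p = 0.2) or in TG crush against wt crush (0.172). These levels lie near the minimum of 1 RPM.

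The groups with 1 of the 2 conditions were set beside the comparison. TG naive and wt crush are each compared here with the same 8 wt naive libraries, so the values are given side by side with no test across them. Against wt naive, 6 genes passed in TG naive (0.0366% of those tested, with 0.0183% higher and 0.0183% lower) and 29 in wt crush (0.177%, with 0.0427% higher and 0.134% lower). Of the 38 genes that passed in TG crush, 12 also passed in wt crush and 2 in TG naive. Ciart had a median of 17.9 RPM in TG crush, 5.12 RPM in TG naive and 16.3 RPM in wt crush libraries, against 6.70 RPM in wt naive libraries. Its log2 difference from wt naive was 1.223 ± 0.15 in TG crush, -0.65 ± 0.14 in TG naive and 1.05 ± 0.15 in wt crush (SE). Tgm2 had medians of 9.87, 27.9 and 14.1 RPM in TG crush, TG naive and wt crush, against 24.3 RPM in wt naive. The log2 differences of Tgm2 from wt naive were -1.18 ± 0.10, 0.24 ± 0.09 and -0.69 ± 0.10 (SE), in the same order of groups. For both genes TG crush and wt crush lay on the same side of wt naive. The TG naive differences had the other sign but did not pass (limma adjusted p = 0.1445 for Ciart and 0.963 for Tgm2).

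Parvb likewise had log2 differences from wt naive of -0.74 ± 0.07 in TG crush, 0.06 ± 0.06 in TG naive and -0.55 ± 0.07 in wt crush (SE). For Mmp14 these were -0.83 ± 0.11, 0.41 ± 0.11 and -0.59 ± 0.11. For Arntl they were -0.67 ± 0.11, 0.31 ± 0.11 and -0.25 ± 0.11. Parvb, Mmp14 and Arntl did not pass in TG naive (limma adjusted p = 0.999, 0.381 and 0.805). In wt crush Arntl did not pass either (limma adjusted p = 0.212). Coq10b, Tra2b and Nufip2 had log2 differences in TG naive near 0 (-0.05 ± 0.07, 0.02 ± 0.05 and -0.02 ± 0.07, SE). In wt crush theirs were 0.19 ± 0.07, 0.10 ± 0.05 and 0.07 ± 0.07 (SE).

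**Figure D4:**
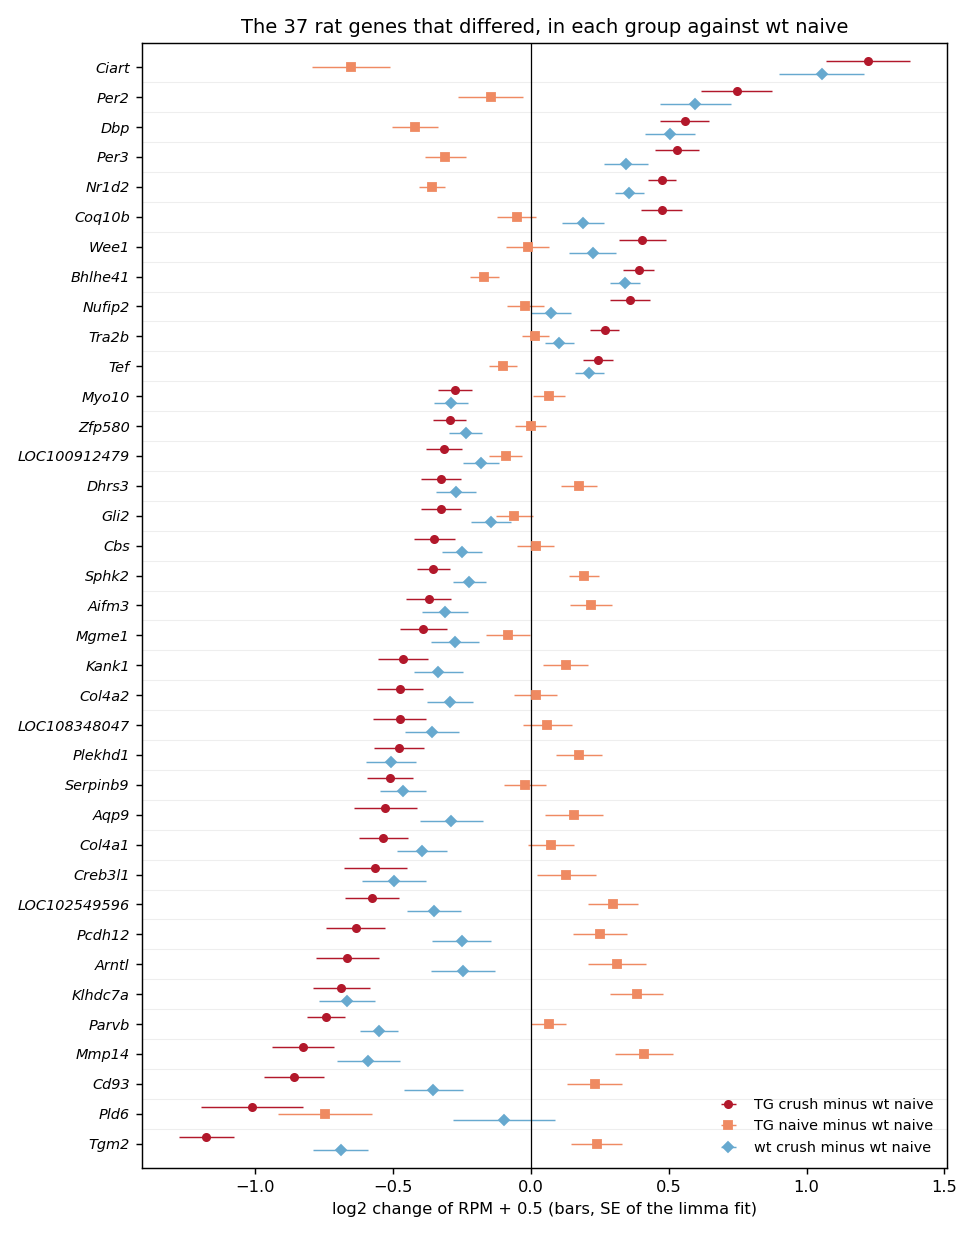
Log2 difference from wt naive (horizontal axis, with the SE of the limma fit) of the 37 rat genes that passed, in TG crush (circles), TG naive (squares) and wt crush (diamonds), ordered by the TG crush value. The 3 differences share the 8 wt naive libraries. Ciart stands highest at 1.223 and Tgm2 lowest at -1.18 in TG crush.

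Set against TG naive rats, labelled with the same genotype but no injury, TG crush rats had 569 genes past the threshold (3.47% of those tested), 193 higher (1.18%) and 376 lower (2.29%). This comparison shares the 6 TG crush libraries with the one against wt naive. Nr1d2 had a log2 difference from TG naive of 0.83 ± 0.05 (SE, limma adjusted p = 1.31e-11), Ciart one of 1.87 ± 0.15 (SE, limma adjusted p = 4.2e-09) and Dbp one of 0.98 ± 0.09 (SE, limma adjusted p = 3.34e-08). Tgm2 had -1.42 ± 0.10 (SE, limma adjusted p = 1.41e-10), Parvb -0.81 ± 0.07 (SE, limma adjusted p = 7.92e-09), Mmp14 -1.24 ± 0.11 (SE, limma adjusted p = 3.34e-08) and Klhdc7a -1.07 ± 0.10 (SE, limma adjusted p = 6.46e-08). Pld6, at -0.27 ± 0.18 (SE, limma adjusted p = 0.445), did not pass there. Of the 15 clock repressors, 10 rose and 0 fell against TG naive, and of the 9 activators and output factors 3 rose and 3 fell. Leaving out single TG crush libraries moved the 569 genes to 234 (without 220), 241 (without 222), 330 (without 214), 1137 (without 226) and 1277 (without 223).

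Set against wt crush rats, labelled with the same injury but the other genotype, only human TOR1A passed (0.0061% of genes tested), with 1343 genes at an unadjusted p under 0.05. No rat gene passed in the limma fit. Under other settings LOC102555474 passed as well: with a pseudocount of 0.1, array weights or limma-voom on whole reads, without the Slc17a7-rich libraries, and without wt naive library 197 or 199 (adjusted p from 0.00178 to 0.0282). Tgm2, Fgf18 and Ift140 passed with array weights (adjusted p = 0.0383 each), Fgf18 also without wt naive library 197 or 202, and Hist3h2a with RPKM per span (adjusted p = 0.0484). Tgm2, at a log2 difference of -0.49 ± 0.11 (SE, limma adjusted p = 0.172), and Pld6, at -0.92 ± 0.20 (SE, limma adjusted p = 0.172), were among the rat genes of lowest p. LOC102555474 and Fgf18, a growth factor gene, stood nearest to the threshold, with log2 differences of 1.71 and 0.73 (limma adjusted p = 0.064 each). For the clock genes, the log2 difference was 0.17 ± 0.16 for Ciart, 0.12 ± 0.06 for Nr1d2, 0.05 ± 0.10 for Dbp and -0.42 ± 0.12 for Arntl (SE). A p that missed the threshold does not show that the groups are alike.

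Whether the injury's difference was the same in both genotypes was tested as an interaction. A single gene passed (0.0061%), Nr1d2, with 1217 genes at an unadjusted p under 0.05. Its log2 difference between crush and naive was 0.83 in TG rats and 0.36 in wt rats, a difference of 0.48 ± 0.07 (SE, limma adjusted p = 0.00725). Nr1d2 was lower in TG naive than in wt naive libraries (log2 difference of -0.36 ± 0.05 (SE, limma adjusted p = 0.000285)), where its medians were 66.9 and 86.0 RPM. After leaving out the Slc17a7-rich libraries no gene passed the interaction test (0 genes, 618 at an unadjusted p under 0.05).

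Of the 47 gene lists examined, 42 held no gene that passed. The 79 cytosolic ribosomal proteins had a median log2 difference of -0.15 and the 13 transcripts of the mitochondrial genome one of 0.15, against -0.03 over all genes tested. The 25 endoplasmic reticulum chaperones and unfolded protein response genes had a median of 0.04, the 22 inherited dystonia genes one of -0.02, the 36 nerve injury and axon growth genes one of -0.04 and the 29 immediate early genes one of -0.01. Of 22 glucocorticoid-responsive genes tested, Tgm2 alone fell and 0 rose, where 0.159% of all genes tested fell and 0.0732% rose. Fkbp5, Tsc22d3 and Sgk1, well-known targets of that hormone, had log2 differences of 0.08 (adjusted p = 0.77), 0.11 (adjusted p = 0.507) and 0.30 (adjusted p = 0.48) in limma.

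Markers of other cell types were also summed by library. Those of spiny neurons had a median log2 difference of 0.10 (20 tested), of astrocytes -0.10 (18), of microglia -0.14 (16), of oligodendrocyte precursors -0.15 (8) and of oligodendrocytes -0.03 (15), and none passed. Ependymal markers had a median of -0.57 over 5 tested and 0 passed, with a summed level of 32.2, 35.8 and 44.4 RPM in TG crush libraries, against 39.4, 49.0 and 89.3 RPM in wt naive libraries (lowest, median and highest). These ranges overlapped. Hydin, a gene of motile cilia, was lower in every TG crush library (9.02, 10.6 and 12.2 RPM, against 12.7, 17.1 and 23.8 RPM in wt naive) but did not pass (limma adjusted p = 0.202). The 3 haemoglobin transcripts tested had a median of 0.78, and the blood list summed to 68.4, 76.8 and 129 RPM in TG crush libraries, against 12.4, 55.2 and 90.5 RPM in wt naive libraries. The part of these cell types and of pituitary transcripts in the gene differences was not tested.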

How the data were processed

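Male rat striatum gave 28 libraries, made with a stranded mRNA kit and sequenced from 1 end for 75 nt over 2 runs, per the labels' protocols. The submitters' processing notes name STAR 2.6.1a, featureCounts of Subread 1.6.3, DESeq2 1.22.2 and the build Rnor_6.0. Whether reads were counted by strand is not stated there or in the labels. The authors deposited 1 table of RPKM values with decimal commas, recorded here under the unit other for that reason, with 0 columns of other samples. Its length is the span of the gene, introns included, which was checked for each gene. Multiplying RPKM by length in kb gave values that sum to 1000000 in every library, called RPM, and these were whole multiples of 1 read within 0.02 for 100% of values. RPM is not corrected for length, so levels were not compared between genes.

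Genes with at least 1 RPM in at least 6 of the 14 TG crush and wt naive libraries were tested. The model, fitted with limma 3.58.1 in R 4.3.3, took log2(RPM + 0.5) of all 28 libraries on the 4 groups, with variances that follow the mean. This scale understates changes of genes near 0.5 RPM. A gene passed where its p, adjusted by Benjamini-Hochberg over all 16391 genes, was under 0.05. Human TOR1A and Tor1a were also compared by exact permutation tests (scipy 1.17.1). The fit was tested on simulated data, with 50 genes of a mean over 5 RPM changed at each size. It called 44% of those raised 1.2-fold, 86% at 1.5-fold and 98% at 2-fold. It also called 12 of 16191 unchanged genes. Alternatives were pseudocounts of 0.1 and 2, no filter, a filter of 5 RPM, median-of-ratios, quantile and non-mitochondrial scaling, array weights, robust variances, limma-voom on whole reads, a spiny neuron covariate, leaving out libraries with Slc17a7 over 20 RPM, the 14 libraries alone, a log2 difference of at least 0.26, and RPKM per span. Each of the 14 TG crush and wt naive libraries was also left out in turn, but TG naive and wt crush libraries were not.

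The comparison and the gene lists were chosen with earlier results of these data known. Of 959 list entries, 932 were in the table. Genes were named by a rule: up to 12 higher and 12 lower of largest change with a mean of at least 5 RPM and a true symbol, the 5 of lowest p, up to 4 per list, every clock gene, Tor1a and Tor1aip1, up to 8 that also pass against another group, and up to 6 over 200 kb. Of the clock genes, 1 is counted but its values are not reported here. The 12 other genes that passed, and genes outside the clock and torsins that did not, were named after their values were seen. Of the 38 genes that passed, 10 overlap another gene, 9 of them on the opposite strand, which makes their reads uncertain where the partner is abundant. Gene coordinates are those of the deposited table (Rnor_6.0), and promoters are RefSeq sequence (GRCr8) matched by Entrez gene identifier. Figures were drawn with matplotlib 3.10.9 (Python 3.11.15).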

Additional observations from a re-analysis of the deposited data

Results flagged for a closer look

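Of 110 groups of libraries checked for a library far from the rest, 6 held one (5.45%), close to the rate of about 1 in 20 that chance gives. TG crush library 226 had the lowest level of human TOR1A in its group, 102.5 RPM, with the next at 133 RPM and the group's median at 137 RPM. Wt naive library 202 had the highest level of human TOR1A in its group, 0.972 RPM, with the next at 0.297 RPM. TG crush library 223 was lowest for Arntl, at 15.5 RPM with the next at 22.5 RPM, and for rat Tor1a, at 16.9 RPM with the next at 21.1 RPM. TG crush library 222 was highest for Pld6, at 1.37 RPM with the next at 0.837 RPM. Wt naive library 196 was highest for Clock, at 81.5 RPM with the next at 70.8 RPM. For Nr1d2 the log2 difference between crush and naive libraries was 0.83 in TG rats and 0.36 in wt rats. These were 0.48 apart (limma interaction, adjusted p = 0.00725). Without the Slc17a7-rich libraries no gene passed the interaction test.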

How the results depend on the processing

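No paired analysis was possible because the groups share no replicate number. The 38 genes became 82 with array weights (23 higher and 59 lower), 79 with the spiny neuron covariate (21 and 58), 21 without the Slc17a7-rich libraries (10 and 11, of which 18 were among the 38) and 16 in the 14 libraries alone (7 and 9, all 16 among the 38), and leaving out 1 library gave 22 to 185 genes. The cause was not tested, beyond the smaller number of libraries in the fits that leave some out. Higher genes numbered 12, but 23, 26 and 22 under median-of-ratios, quantile and non-mitochondrial scaling, and 8 to 47 when 1 library was left out. Lower genes numbered 14 to 140 when 1 library was left out. The pseudocounts, the filters, robust variances, limma-voom, RPKM per span and a log2 difference of at least 0.26 gave 32 to 40 genes. The clock genes that passed numbered 8, and 7 to 11 over all alternatives. Against TG naive the 569 genes became 371 with no filter, 1892 with array weights, 1299 with the covariate, 180 without the Slc17a7-rich libraries, and 234 to 1277 when 1 library was left out. Against wt crush the 1 gene became 5 with array weights, 2 with a pseudocount of 0.1, 2 with limma-voom, 2 without the Slc17a7-rich libraries, 2 with RPKM per span, and 1 to 3 when 1 library was left out. The interaction gave 2 genes with array weights, 0 without the Slc17a7-rich libraries, and 1 to 3 when 1 library was left out. The libraries left out singly were those of TG crush and wt naive, so no fit left out a single TG naive or wt crush library. Signs changed for 3 clock genes that did not pass and lay near 0. Without the Slc17a7-rich libraries the log2 difference was -0.0038 for Clock and 0.022 for Csnk1e. For Csnk1e it was 0.024, 0.0046, 0.0078 and 0.012 under median-of-ratios, quantile and non-mitochondrial scaling and array weights, and -0.030 to 0.013 when 1 library was left out. For Fbxl21 it was 0.0084, 0.0023 and 0.023 under median-of-ratios and quantile scaling and array weights, and -0.077 to 0.052 when 1 library was left out. Each group holds 6 or 8 libraries, and genes under 1 RPM were not tested, so small differences and rare transcripts are beyond what these data resolve.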

Other observations

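Without TG crush library 223, the library with the most pituitary, choroid plexus and mitochondrial transcripts of its group, 45 genes were higher and 140 lower, and all 38 genes of the full comparison remained. In that setting Cry2 (log2 difference of 0.20) and Cipc (0.19), both clock repressor genes, and Hlf (0.52), the remaining PAR bZIP gene, passed as well. So did 7 of the 79 cytosolic ribosomal protein genes, all lower, where 0.854% of all genes tested were lower. Among them Rpl7, Rpl14, Rpl19, Rpl37a, Rplp0 and Rps15 had log2 differences from -0.28 to -0.18. Derl3, which acts in degradation of misfolded endoplasmic reticulum proteins, was higher by 0.43 and shares its values with LOC103694875, so its reads are uncertain. These genes were chosen after their values were seen.

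A further 15 genes had groups that did not overlap but did not pass in limma over all 28 libraries. Guk1, which encodes guanylate kinase, stood at 122.3, 128 and 143 RPM in TG crush libraries (lowest, median and highest), against 143, 150.4 and 162 RPM in wt naive libraries (log2 difference of -0.23, adjusted p = 0.0555). Gulp1, an adaptor gene of phagocytosis, stood at 9.74, 10.2 and 13.9 RPM in TG crush libraries, against 7.08, 8.25 and 9.36 RPM in wt naive libraries (log2 difference of 0.39, limma adjusted p = 0.0562). Cspg5, a brain proteoglycan gene, stood at 108.3, 121 and 122 RPM in TG crush libraries, against 124, 139.9 and 157 RPM in wt naive libraries (log2 difference of -0.22, limma adjusted p = 0.168).

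At the threshold itself, the last genes to pass were Tef, Gli2, Aifm3, Mgme1 and Myo10 (limma adjusted p = 0.0473 each), and the first that did not were Guk1, B3gnt7, Plcd4 and Psd2 (0.0555 each).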
